A study of Mus musculus with 9 samples.

Results

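The comparison described here sets mouse embryonic stem cells (ESCs) with 2 extra copies of Myc against uninduced cells of the same line, 6 of the 9 RNA-seq libraries of the study. Its members were chosen by the labelled cell population alone, 3 libraries with 2 extra copies and 3 uninduced. All cells, controls included, were homozygous for iMOS T1-Myc, an allele that creates cells with different numbers of extra Myc and EYFP (yellow fluorescent protein) copies, carried RERT, had a mixed background, and were grown with LIF on gelatin. Mosaic cultures received 20 µM 4-hydroxytamoxifen for 24 h, and 24 h after its removal populations were separated by their EYFP signal. The uninduced cultures were sorted too. Their labels repeat the tamoxifen text, so their group was read from the title and the labelled cell population. The remaining 3 libraries, from cells of the induced cultures sorted as having no extra copy, serve as a second reference because they shared the drug, the recombination and the mosaic culture. In the comparison with uninduced cells, these 3 conditions and the extra Myc cannot be told apart. The labels name no promoter for the extra Myc. The design text calls the 3 samples of a group biological replicas, and the labels do not say whether they were separate cultures, so p-values measure the spread between these samples, which may be technical.

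Myc is a basic helix-loop-helix transcription factor that pairs with Max and binds E-box DNA. It is known for raising the genes that build ribosomes, nucleotides and mitochondria, and in ESCs it supports self-renewal. In mouse embryos, cells with more Myc are known to outgrow and eliminate neighbours with less. Hypoxia-inducible factor (HIF) and ATF4, described below for their targets, are the factors that cells use when oxygen or amino acids run short.

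Totals ran from 5617097 to 7952695 counts in the 6 libraries. Levels are CPM, counts scaled to library size with TMM factors, which do not correct for gene length, so they are compared only within a gene. Of 13424 genes tested with edgeR, 25.0% were called at an adjusted p below 0.05, 12.8% higher and 12.1% lower with 2 extra copies. The median log2 change over all genes tested was -0.014. The changes were small for most called genes, and 81.9% of them were under 1.5-fold, while 1.48% of the genes tested were called with at least 2-fold. The 3 libraries of each group did not overlap in 38.5% of the genes tested. Replicate 1 with 2 extra copies stood apart from the other libraries of its group, with a chi-square per degree of freedom of 2.61 and 2.97 where other pairs gave 1.36 to 1.80. Log2 slopes over transcript length per doubling were 0.0281, 0.0143 and 0.0129 in uninduced libraries and -0.00197, -0.0343 and -0.0425 with 2 extra copies (exact two-sided permutation test, p = 0.1, the smallest possible with 3 against 3). List counts were therefore also taken without that replicate and with the length trend removed. Removing the trend moved the counts of higher and lower genes from 3 and 11 to 5 and 12 for formative genes, from 5 and 4 to 5 and 2 for YAP and TEAD genes, from 3 and 10 to 3 and 8 for WNT genes, and from 0 and 10 to 2 and 9 for cholesterol genes. Summed ESC markers were 3480 to 3520 CPM in uninduced libraries and 3320 to 3520 with 2 extra copies, and none of the 8 markers was under 1 CPM. In bulk samples such as these, fewer cells of a type and less RNA per cell cannot be told apart.

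Promoters were searched on both strands for 3 motifs, in RefSeq windows from 250 bases before to 50 bases after each annotated start (GRCm38.p6). The first motif was the composite site bound by ATF4 with C/EBP partners, TGATGNAA, which lay in 3.97% of all promoters and 2.2% of the promoters of genes tested. Among called members of the ATF4/CHOP list it lay in 13 of 37 promoters (35.1%). Those promoters belong to 32 of the 39 called members. The members of that list were known targets, so the share describes the list. Printed here are the 3 called members with the smallest p that hold the motif. They are examples from the fall of amino acid synthesis and stress genes described below. The motif or its reverse complement is in capitals.
Chac1 promoter, chr2:119350992-119351291, plus strand, motif at position -193 from the start: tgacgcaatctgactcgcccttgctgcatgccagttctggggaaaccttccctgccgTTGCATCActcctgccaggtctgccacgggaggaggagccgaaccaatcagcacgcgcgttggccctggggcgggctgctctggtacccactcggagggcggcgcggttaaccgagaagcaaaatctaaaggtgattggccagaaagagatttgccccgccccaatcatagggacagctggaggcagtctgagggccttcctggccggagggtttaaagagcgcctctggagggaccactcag
Pck2 promoter, chr14:55540016-55540315, plus strand, motif at position -103: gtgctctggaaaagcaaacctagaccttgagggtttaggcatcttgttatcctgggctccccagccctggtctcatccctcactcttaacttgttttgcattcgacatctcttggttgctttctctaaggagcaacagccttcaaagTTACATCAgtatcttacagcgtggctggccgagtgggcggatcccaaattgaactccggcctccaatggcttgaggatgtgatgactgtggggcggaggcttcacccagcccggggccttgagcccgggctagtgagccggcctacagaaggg
Asns promoter, chr6:7693160-7693459, minus strand, motif at position -23: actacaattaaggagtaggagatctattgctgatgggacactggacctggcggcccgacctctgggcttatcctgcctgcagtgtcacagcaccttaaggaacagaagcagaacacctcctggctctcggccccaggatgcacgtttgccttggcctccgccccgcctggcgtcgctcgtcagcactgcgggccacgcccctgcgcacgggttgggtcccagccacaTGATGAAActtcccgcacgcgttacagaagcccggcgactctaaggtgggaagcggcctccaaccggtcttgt

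The second motif was the E-box CACGTG bound by Myc and Max, present in 7.15% of all promoters, in 10.1% of those of genes tested and in 12 of 60 (20%) of those of the ribosome biogenesis list. The 2 called members with the smallest p that hold it are printed, with the E-box in capitals, because that list had the most uniform rise among the growth genes. Related factors bind the same letters, and a match is a description only. The third motif, the hypoxia response core ACGTG or GCGTG, whose first form lies within the E-box, was in 61.9% of the promoters of genes tested. It was in 77.1% of those of the hypoxia list, 76.7% of those of the ribosome biogenesis list and 78.3% of those of the ATF4/CHOP list, so none is printed for it.
Nop2 promoter, chr6:125131633-125131932, plus strand, E-box at position -60: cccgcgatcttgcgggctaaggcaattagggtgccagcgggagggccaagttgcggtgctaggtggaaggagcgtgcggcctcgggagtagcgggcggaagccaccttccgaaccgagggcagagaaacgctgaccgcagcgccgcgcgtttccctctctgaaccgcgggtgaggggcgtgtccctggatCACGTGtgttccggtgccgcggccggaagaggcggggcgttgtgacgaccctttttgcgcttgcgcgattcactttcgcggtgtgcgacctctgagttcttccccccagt
Nle1 promoter, chr11:82908346-82908645, minus strand, E-box at position 23: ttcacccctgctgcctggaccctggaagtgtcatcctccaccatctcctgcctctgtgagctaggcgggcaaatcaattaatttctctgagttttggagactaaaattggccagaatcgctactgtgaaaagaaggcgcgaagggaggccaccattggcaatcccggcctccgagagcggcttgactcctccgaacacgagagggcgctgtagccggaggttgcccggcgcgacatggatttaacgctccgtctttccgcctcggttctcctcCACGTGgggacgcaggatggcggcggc

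Myc itself (chromosome 15, 61985391 to 61990374) stood at 11.5, 14.1 and 14.2 CPM in uninduced libraries and at 138, 147 and 141 CPM with 2 extra copies. Every library with 2 extra copies lay far above every uninduced one, and the rise was 10.7-fold (log2 3.42, SE 0.0745, adjusted p = 1.88e-27). Between them lay the cells without an extra copy, at 31.8, 30.6 and 32.4 CPM. The counts do not separate the native gene from the transgene. Mycn (chromosome 12, 12936093 to 12941914), the family member with the higher count in uninduced ESCs, fell from 186, 187 and 190 CPM to 125, 126 and 127 CPM. The groups did not overlap, and the fall was 1.49-fold (log2 -0.57, SE 0.0422, adjusted p = 5.2e-12). Both genes also differed between cells with 2 extra copies and cells with none, by 4.52-fold for Myc and 1.21-fold for Mycn. Among the partners, Max, the shared dimerization partner of the network, rose from 85.6, 93.8 and 88.8 to 109, 110 and 115 CPM (1.25-fold, adjusted p = 1.52e-05). Mlxipl, the glucose-sensing relative known as ChREBP, rose 1.69-fold and Mxi1, a repressor that competes for Max, rose 1.34-fold. The 13 genes of the network list counted 4 higher and 2 lower, and across the alternatives tried the lower count ran from 1 to 4.

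**Figure D1:**
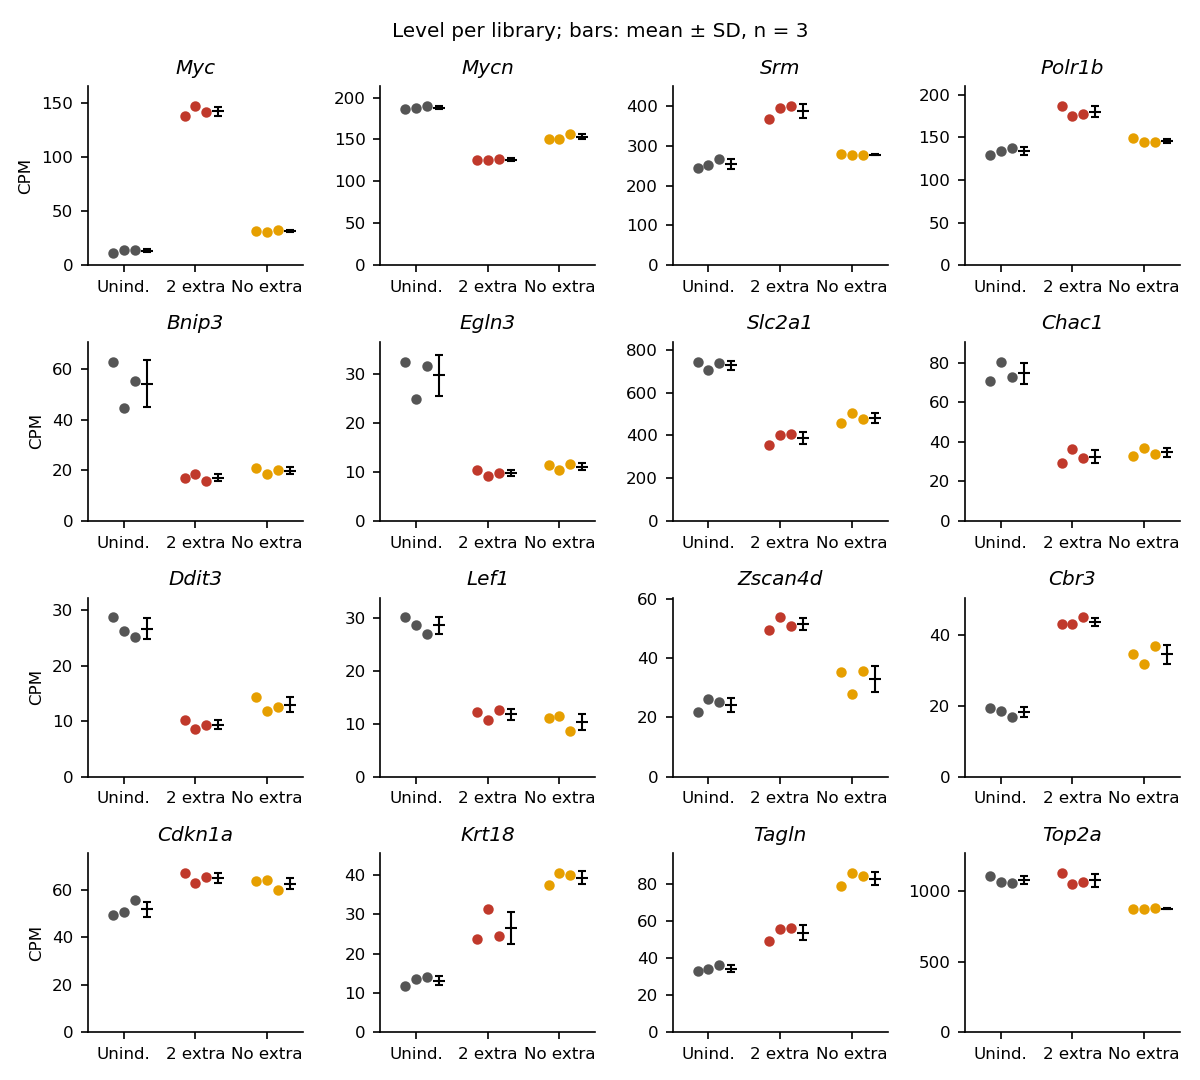
Level (CPM, y axis from 0 in each panel) of 16 genes in each of 9 libraries, grey uninduced, red with 2 extra copies and orange with no extra copy, with the mean ± SD of 3 libraries beside them. The panels show growth genes such as Srm rising, hypoxia and stress genes such as Egln3 and Chac1 falling to about the level of the cells with no extra copy, and Top2a without a call.

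**Figure D2:**
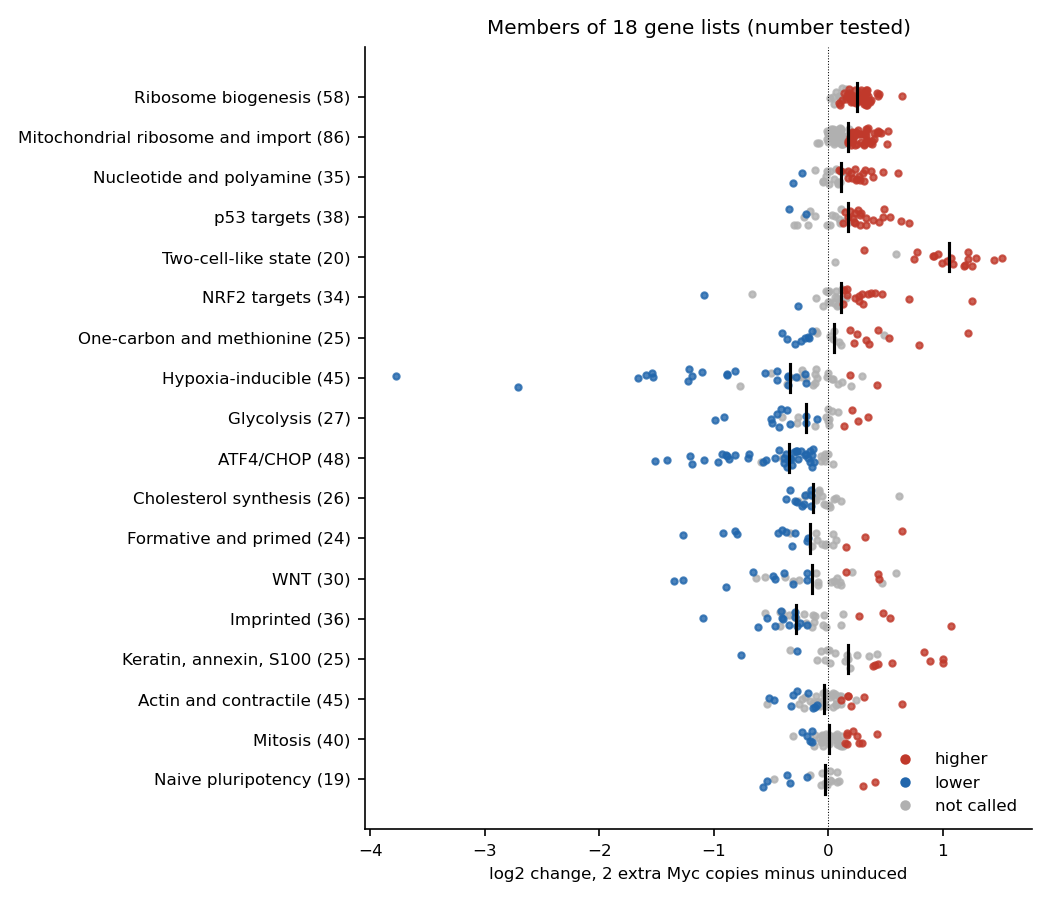
Log2 change with 2 extra copies against uninduced (x axis) of each tested member of 18 gene lists (rows, number tested in brackets), red called higher, blue called lower and grey not called, with the list median as a black bar. Ribosome biogenesis has no member below 0, and the ATF4/CHOP list has no member called higher.

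The machinery that makes ribosomes rose. Of 58 ribosome biogenesis genes tested, 50 (86.2%) rose and 0 fell, against 12.8% and 12.1% of all genes tested, and the list's median log2 change was 0.25. Nop10, a component of the particles that pseudouridylate ribosomal RNA, showed 77.3, 81.7 and 87.9 CPM in uninduced libraries and 123, 131 and 130 CPM with 2 extra copies (1.56-fold, SE 0.054 on the log2 scale, adjusted p = 7.27e-11). Polr1b, the second largest subunit of RNA polymerase I, rose from 129, 134 and 138 to 187, 175 and 178 CPM (1.35-fold, adjusted p = 5.07e-09). For both genes all libraries with 2 extra copies lay above all uninduced ones. Nip7, a late factor of the large subunit, rose 1.36-fold, and the nucleolar helicase Ddx18 rose 1.29-fold, though Ddx18 has a close copy that can share its reads. Nop2, an RNA methyltransferase whose promoter is printed above, rose from 229, 229 and 237 to 281, 304 and 295 CPM (1.27-fold), and the large-subunit factor Nle1 rose from 64.7, 68.6 and 65.3 to 81.7, 80.8 and 81.6 CPM (1.23-fold). These last 2 were picked for their promoters. In the direct test against cells with no extra copy, where 8.30% of all genes were higher and 7.70% lower, 48 of the 58 were higher and 0 lower. Cells with no extra copy against uninduced cells, a comparison that shares the uninduced libraries, gave 5 higher and 4 lower, beside 7.10% and 6.39% of all genes. The count was 51 and 0 when 2-extra-copy replicate 1 was left out and 48 and 0 with the length trend removed.

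RNA polymerase III, which makes transfer RNA and 5S ribosomal RNA, moved less. Of 24 subunits and factors 6 rose and 0 fell, with a median log2 change of 0.09. The 2 subunits that it shares with polymerase I rose, Polr1d at 1.25-fold (114, 120 and 124 to 146, 147 and 152 CPM) and Polr1c at 1.18-fold. Polr3f rose 1.28-fold from 33.3, 35.4 and 32.6 to 42.1, 40.7 and 46.6 CPM, with no overlap between groups. Catalytic subunits Polr3a and Polr3b had log2 changes of 0.11 and 0.10 and were not called.

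Mitochondrial protein synthesis and import rose broadly and modestly. Of 86 genes 41 rose (47.7%) and 0 fell, with a median log2 change of 0.17. The matrix chaperone Hspe1, which works with Hspd1, rose from 290, 330 and 336 to 414, 423 and 443 CPM (1.34-fold, adjusted p = 2.09e-07). Hspd1 rose 1.32-fold and has close pseudogene copies. Mrpl18, a protein of the mitochondrial large ribosomal subunit, rose 1.32-fold from 77, 79.9 and 75 to 98.5, 108 and 100 CPM. Tomm40, the channel of the outer membrane, rose 1.25-fold. Against cells with no extra copy 21 of the 86 were higher and 0 lower. With the length trend removed the count against uninduced cells was 39 higher and 1 lower.

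Nucleotide and polyamine synthesis rose as well, in 18 of 35 genes with 2 lower and a median log2 change of 0.11. Srm, spermidine synthase, rose from 244, 252 and 268 to 367, 396 and 401 CPM (1.52-fold, SE 0.0412, adjusted p = 7.57e-13), with no overlap between groups and 277 to 279 CPM in cells with no extra copy. Odc1, the enzyme that opens polyamine synthesis and a long-known Myc target, rose 1.19-fold from 1270, 1310 and 1330 to 1490, 1560 and 1580 CPM, with a close copy noted. Pfas of purine synthesis rose 1.24-fold and the nucleoside diphosphate kinase Nme1 1.30-fold. The 2 genes that were lower, Oaz2 and Smox, act to restrain or oxidize polyamines, at 1.17-fold and 1.24-fold lower, and DESeq2 called neither (adjusted p = 0.0608 and 0.206). When 2-extra-copy replicate 1 was left out the list counted 22 higher and 1 lower.

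One-carbon and methionine metabolism split, with 9 of 25 genes higher and 8 lower. The members that rose included the cytosolic serine and folate enzymes Shmt1, from 147, 157 and 151 to 195, 207 and 210 CPM (1.35-fold, adjusted p = 3.09e-09), and Mthfd1 at 1.19-fold. The glycine cleavage enzyme Gldc rose 1.26-fold. Cbs, which commits homocysteine to cysteine, rose 1.73-fold from 17.2, 19.2 and 18 to 29.8, 32.9 and 31.6 CPM. The mitochondrial counterparts Shmt2 and Mthfd1l fell 1.15-fold and 1.13-fold, and Psat1 of serine synthesis fell 1.28-fold. Psat1 stood at 647, 648 and 649 CPM uninduced, at 490, 513 and 514 for 2 extra copies and at 415, 432 and 424 for none, so that the cells with 2 extra copies lay between the other groups. Against cells with no extra copy, 14 of the 25 were higher and 0 lower, Psat1 (1.19-fold, adjusted p = 3.62e-06) and Shmt2 (1.18-fold, adjusted p = 0.000137) among them. Cells with no extra copy counted 2 higher and 7 lower of the 25 against the same uninduced libraries. Psat1, Psph, Shmt2, Mthfd2 and Phgdh also stand in the ATF4/CHOP list, and Phgdh was not called (1.03-fold higher, adjusted p = 0.516). Without uninduced replicate 2 the split was 8 higher and 5 lower, and with DESeq2 8 and 4.

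Genes induced by hypoxia fell. Of 45 tested, 22 (48.9%) fell and 2 rose, with a median log2 change of -0.33. Ndufa4l2, a mitochondrial protein that HIF induces to lower respiration, had the largest fall of any gene that met the naming rule, from 10.8, 7.31 and 12.5 CPM to 1.05, 0.903 and 0.29 CPM (13.7-fold lower, log2 -3.78, SE 0.328, adjusted p = 3.27e-10). Those low values rest on few reads. Bnip3, a mitophagy receptor with a close copy, fell from 63, 44.7 and 55.3 to 17, 18.6 and 15.8 CPM (3.17-fold, adjusted p = 1.52e-09). Egln3, a prolyl hydroxylase that marks HIF for destruction and is itself a HIF target, fell from 32.5, 24.8 and 31.7 to 10.3, 9.21 and 9.71 CPM (3.02-fold, adjusted p = 1.36e-11). In all 3 genes uninduced replicate 2 was the lowest of its group. All 3 were named as largest falls, a rule that required no overlap between groups, so nothing is read from their separation. Ndrg1, a stress-induced growth suppressor, fell 2.91-fold, Ddit4, an inhibitor of mTORC1, 2.28-fold from 255, 210 and 234 to 103, 103 and 100 CPM, and the secreted glycoprotein Stc2 1.85-fold. Vegfa, the angiogenic factor, was chosen after its values were seen and fell 1.76-fold from 67.5, 62.5 and 64.5 to 40, 37.2 and 33.8 CPM. The 2 members that rose were Mxi1 and Jmjd6 (1.14-fold), and Jmjd6 was not called by DESeq2 (adjusted p = 0.0729). Without uninduced replicate 2 the counts were 1 higher and 23 lower.

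The hypoxia genes were also low in cells with no extra copy, which counted 2 higher and 22 lower of the 45 against the same uninduced libraries. Levels of Egln3 there were 11.4, 10.4 and 11.7 CPM and those of Ndrg1 9.52, 10.2 and 10 CPM. The direct test between the 2 sorted populations did not call Egln3 (1.13-fold lower, adjusted p = 0.489), Ndrg1 (1.03-fold higher, adjusted p = 0.882), Bnip3 (1.15-fold lower, adjusted p = 0.369) or Ddit4 (1.02-fold lower, adjusted p = 0.792). Ndufa4l2 was lower with 2 extra copies than with none (2.52-fold, adjusted p = 0.0458), where the control values were 2.55, 1.56 and 1.43 CPM, and Stc2 was higher (1.30-fold, adjusted p = 0.00168). Over the list the direct test called 5 higher and 6 lower (11.1% and 13.3%, beside 8.30% and 7.70% of all genes).

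Glycolysis fell in 12 of 27 genes (44.4%) and rose in 4 (14.8%), beside 12.1% and 12.8% of all genes tested. The median log2 change was -0.19 and ranged from -0.22 to -0.14 when 1 library was left out. Cells with no extra copy counted 14 lower and 2 higher of the 27 against the same uninduced libraries, with a median of -0.202. Slc2a1, the main glucose transporter of ESCs, fell from 745, 704 and 737 to 356, 402 and 407 CPM (1.88-fold, SE 0.046, adjusted p = 5.02e-12). Phosphofructokinase Pfkp fell 1.42-fold, triose phosphate isomerase Tpi1 1.33-fold and phosphoglycerate kinase Pgk1, which has a close copy, 1.29-fold. The 4 that rose were Ldha, Slc16a1, Pfkm and Pdha1. Ldha, which turns pyruvate into lactate and is a known Myc target, rose 1.15-fold from 831, 777 and 828 to 912, 941 and 959 CPM, and stood at 608, 594 and 597 CPM in cells with no extra copy. That gap between the sorted populations was 1.56-fold (adjusted p = 3.38e-15). The lactate exporter Slc16a1 rose 1.19-fold, the isoform Pfkm 1.27-fold and Pdha1 of pyruvate dehydrogenase, which overlaps a gene on the other strand, 1.10-fold. Gapdh (1.00-fold, adjusted p = 0.991) and Hk2 (1.00-fold, adjusted p = 0.935) were not called. The direct test called Slc2a1 lower (1.24-fold, adjusted p = 7.39e-05) and Pfkp higher (1.15-fold). Over the list it called 7 higher and 2 lower (25.9% and 7.41%, beside 8.30% and 7.70% of all genes).

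**Figure D3:**
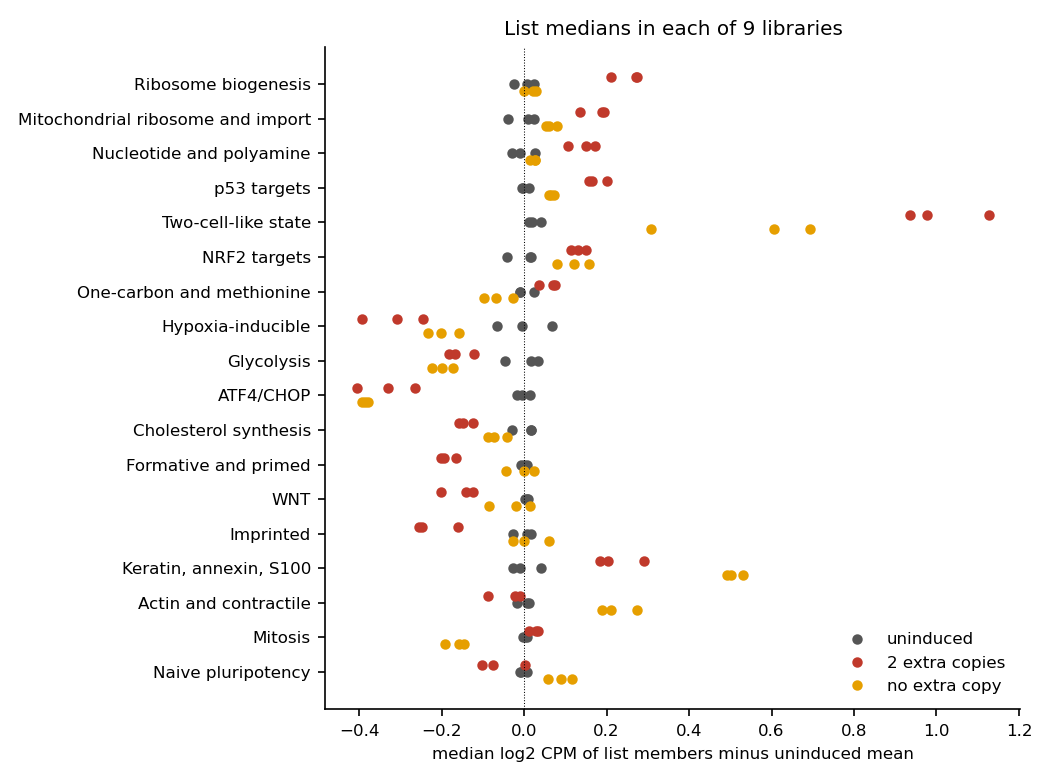
Median over list members of the log2 CPM of a library minus the mean of the uninduced libraries (x axis) for 18 lists (rows), 1 point per library, grey uninduced, red with 2 extra copies and orange with no extra copy. For ribosome biogenesis the red points lie at 0.212 to 0.275 and the orange points at 0.001 to 0.030, and for the ATF4/CHOP list red and orange points lie at -0.405 to -0.265 and -0.392 to -0.378.

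The amino acid response had the largest share of lower genes among the lists described here. Of 48 ATF4 and CHOP targets 39 (81.2%) fell and 0 rose, with a median log2 change of -0.34. Chac1, which degrades glutathione, fell from 70.6, 80.5 and 72.7 to 29.3, 36.1 and 32 CPM (2.30-fold, SE 0.0772, adjusted p = 3.47e-13). Ddit3, the gene of CHOP, fell from 28.7, 26.3 and 25.1 to 10.2, 8.67 and 9.27 CPM (2.85-fold, adjusted p = 1.96e-11), and the related factor Atf5 fell 1.94-fold. Pck2, the mitochondrial enzyme that makes phosphoenolpyruvate, fell from 130, 138 and 129 to 69.1, 78.8 and 77.5 CPM (1.76-fold), and asparagine synthetase Asns from 386, 400 and 399 to 250, 280 and 268 CPM (1.49-fold). In each of these genes all 3 libraries with 2 extra copies lay below all 3 uninduced ones, which the naming rule required for Ddit3. Atf4 itself, named after its values were seen, fell 1.21-fold from 450, 465 and 452 to 342, 386 and 398 CPM, although the factor is known to be controlled mostly at translation. Vldlr, a lipoprotein receptor on the list, fell 2.66-fold from 17.7, 16.5 and 16 to 5.26, 7.23 and 6.37 CPM. The cystine transporter Slc7a11, which ATF4 and NRF2 both induce, fell 2.12-fold. Ddit4 and Stc2 are counted here and among the hypoxia genes.

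Cells with no extra copy had this fall too, in 45 of the 48 with 0 higher, against the same uninduced libraries. The direct test found 16 of the 48 higher and 2 lower with 2 extra copies, beside 8.30% and 7.70% of all genes, with a median log2 difference of 0.08. Chac1 (adjusted p = 0.471), Atf5 (adjusted p = 0.841) and Pck2 (adjusted p = 0.709) were not called between the sorted populations, at fitted differences of 1.08-fold, 1.02-fold and 1.03-fold. Asns was 1.10-fold higher with 2 extra copies than with none (adjusted p = 0.0263) and Ddit3 1.37-fold lower (adjusted p = 0.0221). When 2-extra-copy replicate 1 was left out 38 fell against uninduced cells and 0 rose, and with the length trend removed the count was 39 and 0.

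Chaperones of the endoplasmic reticulum fell in 10 of 26 with 1 higher, with a median log2 change of -0.085. The median was -0.051 when 2-extra-copy replicate 1 was left out and -0.054 without uninduced replicate 2. The disulfide isomerase Pdia4 fell 1.27-fold (255, 260 and 267 to 211, 199 and 207 CPM), the chaperone Hsp90b1 1.19-fold, the kinase inhibitor Dnajc3 1.27-fold and calreticulin, Calr, 1.12-fold. Dnajc3 was also lower than in cells with no extra copy (1.24-fold, adjusted p = 0.00422). The single member that rose, Sec61b, lost its call with the length trend removed (adjusted p = 0.199). Cholesterol synthesis and its regulators fell in 10 of 26 with 0 higher and a median of -0.13. Fdps fell 1.22-fold from 164, 170 and 174 to 132, 143 and 139 CPM, Msmo1 1.29-fold and the sensor Insig1 1.21-fold. The cholesterol count was 8 lower and 1 higher when 2-extra-copy replicate 1 was left out, 6 and 0 without replicate 3, and 4 and 0 with DESeq2.

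**Figure D4:**
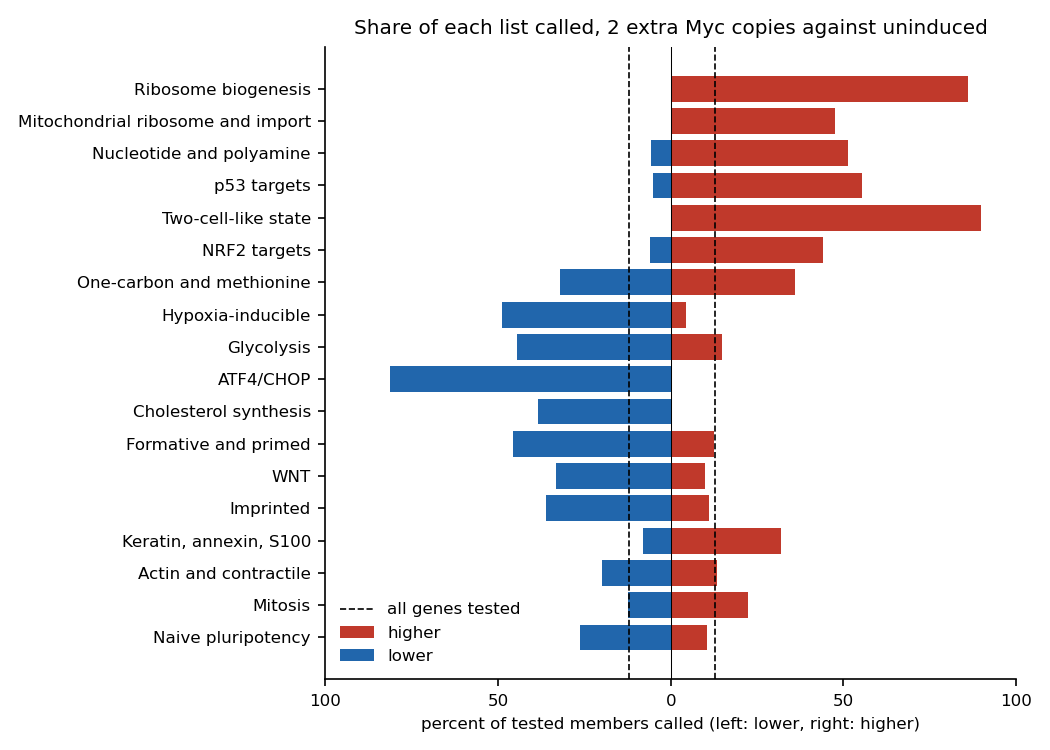
Share of tested members (percent, x axis, 0 in the middle) called lower (blue, left) or higher (red, right) with 2 extra copies against uninduced for 18 lists, with dashed lines at the shares of all genes tested, 12.1% lower and 12.8% higher. The two-cell-like list reaches 90% higher, ribosome biogenesis 86.2% higher and ATF4/CHOP targets 81.2% lower.

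Genes of the two-cell-like state, a rare and transient ESC state that resembles the two-cell embryo, rose. Of 28 genes listed, 25 had a row of counts and 20 passed the filter. Of the 20 tested, 18 rose and 0 fell, with a median log2 change of 1.06, the largest of the lists described here. Without the filter the count was 18 higher and 1 lower of 25. It was 14 and 0 of the 20 with DESeq2 and when uninduced replicate 1 was left out. Zscan4d, a telomere-associated factor that marks the state, rose from 21.7, 26.2 and 25.1 to 49.6, 53.7 and 50.8 CPM (2.11-fold, SE 0.0908, adjusted p = 8.05e-11). Zscan4f rose 1.94-fold, Zscan4c 1.99-fold and Zscan4b 1.71-fold. The deubiquitinase genes Usp17la, Usp17lc and Usp17le rose 2.45-fold, 2.38-fold and 2.28-fold, Usp17la from 8.15, 6.18 and 7.39 to 16.1, 17.5 and 19.1 CPM. No uninduced library reached the level of any library with 2 extra copies in these 7 genes. For all but Zscan4b the naming rule required this separation, so nothing is read from it. All 7 have near-identical copies that can share reads, so the members of the 2 families are not separate measurements. Cells with no extra copy counted 9 higher and 1 lower against the same uninduced libraries, with Zscan4d at 35.4, 27.9 and 35.7 CPM. The direct test called 10 higher and 0 lower, Zscan4d at 1.59-fold (adjusted p = 1.92e-06) among them, but not Zscan4c (1.42-fold, adjusted p = 0.106).

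General pluripotency genes had small list medians, -0.071 for core and -0.028 for naive genes, with a larger share called lower than among all genes tested. Of the 14 core genes 1 rose (7.14%) and 4 fell (28.6%), beside 12.8% and 12.1% of all genes tested. Pou5f1, the gene of Oct4, was not called (1.05-fold lower, adjusted p = 0.119), nor was Nanog (1.05-fold lower, adjusted p = 0.204). Sox2 fell from 378, 368 and 370 to 302, 309 and 330 CPM (1.18-fold, adjusted p = 1.22e-05). The Nodal co-receptor Tdgf1 fell 1.20-fold and Lin28a, which blocks let-7 maturation, 1.12-fold. Dppa5a rose 1.15-fold and has a sequence match to another gene. Among 19 naive genes 2 rose (10.5%) and 5 fell (26.3%). Sall1, a zinc finger repressor, fell 1.45-fold from 285, 290 and 303 to 207, 203 and 196 CPM, and Gbx2, which overlaps a gene on the other strand, fell 1.28-fold. Tcl1, an Akt co-activator, rose 1.33-fold from 30.5, 26.6 and 29.1 to 41.7, 35.4 and 37.4 CPM. Against cells with no extra copy, 1 naive gene was higher and 10 were lower (5.26% and 52.6%, beside 8.30% and 7.70% of all genes). Cells with no extra copy counted 7 higher and 4 lower of the 19 against the same uninduced libraries, with a median of 0.069. When 2-extra-copy replicate 1 was left out the core list counted 3 higher and 4 lower and the naive list 1 and 4.

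Formative and primed genes, which rise as ESCs leave the naive state, fell in 11 of 24 with 3 higher and a median log2 change of -0.16. Otx2, a driver of that transition, fell from 35.8, 36.3 and 34.5 to 21.6, 17.3 and 22.2 CPM (1.74-fold, adjusted p = 2.09e-07). Zic2 fell 1.76-fold and the kinase Pim2 1.89-fold, from 188, 184 and 190 to 90.1, 108 and 99.2 CPM. Tcf15, an early marker of priming, went the other way at 1.57-fold from 18, 19.4 and 20.8 to 28.9, 29.1 and 32.6 CPM, and the FGF-responsive Etv4 rose 1.25-fold. The classical marker Fgf5 stood at 3.85 CPM or less in uninduced libraries and was not called. Otx2 and Tcf15 were not called between the 2 sorted populations (adjusted p = 0.749 and 0.881), while Pim2 and Zic2 were lower with 2 extra copies than with none, by 1.25-fold and 1.23-fold.

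WNT pathway genes fell in 10 of 30 with 3 higher and a median of -0.14. Lef1, the nuclear partner of beta-catenin and itself a WNT target, fell from 30.1, 28.7 and 26.9 to 12.3, 10.7 and 12.6 CPM (2.40-fold, SE 0.113, adjusted p = 3.07e-10). In the sorted population without an extra copy Lef1 stood at 11, 11.4 and 8.57 CPM. The target Sp8 fell 2.55-fold from 4.78, 6.3 and 5.39 to 2.1, 2.17 and 2.17 CPM. Porcn, which acylates WNT ligands, fell 1.40-fold and the receptor Fzd5 1.24-fold, while the receptor Fzd10 rose 1.35-fold from 18, 15.4 and 17.5 to 21.6, 22.9 and 23.9 CPM. Beta-catenin, Ctnnb1 (1.01-fold higher, adjusted p = 0.706), and the feedback target Axin2 (1.24-fold lower, adjusted p = 0.0973) were not called. The rises of Axin1 and Tnfrsf19 were lost with DESeq2 (adjusted p = 0.166 and 0.127), and the count of rises was 1 with DESeq2 and without uninduced replicate 2, replicate 2 or replicate 3 of the cells with 2 extra copies.

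Targets of p53 rose in 21 of 38 (55.3%) with 2 lower and a median log2 change of 0.18. Mdm2, the ligase that degrades p53, rose from 211, 198 and 208 to 288, 270 and 280 CPM (1.36-fold, SE 0.041, adjusted p = 5.15e-10). Plk2 rose 1.40-fold from 80.8, 72 and 82 to 107, 108 and 113 CPM, Ei24 1.22-fold and the phosphatase Ptpn14 1.31-fold. The cell cycle inhibitor Cdkn1a, p21, rose 1.26-fold from 49.5, 50.8 and 55.6 to 67.1, 62.9 and 65.6 CPM. Gadd45a and Sesn2, which stress pathways other than p53 also induce, were the 2 that fell, by 1.27-fold and 1.15-fold. Mdm2 and Plk2 were also higher than in cells with no extra copy (1.22-fold and 1.19-fold), and Cdkn1a was not called there (1.04-fold, adjusted p = 0.651). The direct test called 10 of the 38 higher and 2 lower (26.3% and 5.26%, beside 8.30% and 7.70% of all genes).

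Apoptosis genes showed no common direction, with 8 of 36 higher and 6 lower and a median log2 change of 0.01. The pore-former Bax rose 1.14-fold from 239, 252 and 263 to 278, 292 and 288 CPM and the mitochondrial flavoprotein Aifm1 1.22-fold. Bid and the protease Htra2 rose 1.23-fold and 1.43-fold, and both overlap genes on the other strand. Caspases Casp2 and Casp9 fell 1.33-fold and 1.35-fold, the inhibitor Xiap fell 1.27-fold and the BH3-only gene Bmf 1.51-fold from 33.6, 26.5 and 30.3 to 20.7, 19 and 20.1 CPM. The survival gene Mcl1 was not called (1.00-fold, adjusted p = 0.966). The genes named as lower thus include promoters of cell death and one inhibitor of it.

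Antioxidant genes driven by NRF2 rose in 15 of 34 (44.1%) with 2 lower and a median of 0.11. Cbr3, a carbonyl reductase, rose the most of these, from 19.5, 18.5 and 16.8 to 43.1, 43.2 and 45.1 CPM (2.39-fold, SE 0.0897, adjusted p = 2.55e-12). The level of Cbr3 without an extra copy was 34.8, 31.8 and 37.1 CPM, below that with 2 extra copies by 1.28-fold (adjusted p = 0.00214). Thioredoxin Txn1 rose 1.27-fold, the aldo-keto reductase Akr1b3 1.23-fold and transketolase Tkt 1.20-fold. Slc7a11 fell, and Ugdh, the other member called lower, had overlapping groups and was not called by several alternatives. Hmox1 was not called (1.06-fold higher, adjusted p = 0.241). In cells with no extra copy 11 of the 34 were higher and 1 lower against the same uninduced libraries, with a median of 0.125. The direct test called 7 higher and 3 lower (20.6% and 8.82%, beside 8.30% and 7.70% of all genes), with a median of 0.005. It did not call Txn1 (1.05-fold higher, adjusted p = 0.282).

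Keratin, annexin and S100 genes rose in 8 of 25 with 2 lower and a median of 0.17, which was 0.296 without uninduced replicate 2. Krt18 rose from 11.9, 13.6 and 14.2 to 23.8, 31.3 and 24.6 CPM (2.00-fold, adjusted p = 4.94e-08) and its partner Krt8 1.85-fold. The phospholipid-binding Anxa1 rose 2.00-fold from 6.05, 5.8 and 4.93 to 12.1, 11.6 and 10.3 CPM, S100a6 1.78-fold and galectin Lgals1 1.47-fold. Anxa6 and Lgals9 fell 1.21-fold and 1.69-fold. In each of Krt18, Krt8, Anxa1, S100a6 and Lgals1 the level was higher still in cells with no extra copy, where Krt18 stood at 37.4, 40.5 and 40 CPM. The direct test called 16 of the 25 lower with 2 extra copies and 1 higher.

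Actin and contractile genes had 6 of 45 higher (13.3%, beside 12.8% of all genes tested) and 9 lower (20%, beside 12.1%), with a median of -0.03, so the share of higher genes was near the background. The counts were 7 and 5 when 2-extra-copy replicate 1 was left out, 2 and 5 without uninduced replicate 1, and 3 and 3 with DESeq2. Tagln, an actin-binding marker of smooth muscle, rose from 32.9, 34.4 and 36.3 to 49.1, 56 and 56.2 CPM (1.56-fold, adjusted p = 6.45e-08), and tropomyosin Tpm1 rose 1.12-fold. The crosslinker filamin, Flna, fell 1.24-fold from 692, 652 and 657 to 567, 544 and 506 CPM, and calponin Cnn2 1.21-fold. In the direct test 33 of the 45 were lower with 2 extra copies than with none and 0 were higher, beside 29 higher and 0 lower for cells with no extra copy against uninduced ones, which share those libraries. Targets and regulators of YAP and TEAD counted 5 higher and 4 lower of 26 (19.2% and 15.4%, beside 12.8% and 12.1% of all genes tested). The counts were 4 and 1 without uninduced replicate 1. Cells with no extra copy counted 11 higher and 1 lower of the 26 against the same uninduced libraries. The direct test called 0 higher and 8 lower with 2 extra copies than with none. Igfbp3 rose 1.48-fold and Thbs1 1.71-fold from 19.1, 14.4 and 11.9 to 29.8, 20.6 and 27.2 CPM, where uninduced replicate 1 lay close to the lowest library with 2 extra copies.

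Of 31 matrix genes tested, 8 rose and 9 fell (25.8% and 29%, beside 12.8% and 12.1% of all genes tested). Cells with no extra copy counted 13 higher and 1 lower against the same uninduced libraries, with a median log2 change of 0.370. The direct test called 0 higher and 16 lower with 2 extra copies than with none (51.6% lower, beside 7.70% of all genes). Among those that rose were the fibrillar collagens Col1a2, from 9.28, 10.1 and 10.6 to 23.3, 19.5 and 17.2 CPM (1.99-fold, adjusted p = 4.38e-07), Col1a1 at 1.75-fold and Col5a1 at 1.60-fold. The matrix glycoprotein Fbln2 rose 1.90-fold from 4.92, 4.66 and 4.77 to 10.2, 6.14 and 10.7 CPM. The basement membrane genes Agrn and Nid2 fell 1.27-fold and 1.23-fold, the collagen chaperone Serpinh1 1.41-fold and the crosslinking enzyme Loxl2 1.63-fold. When 2-extra-copy replicate 3 was left out 7 rose and 5 fell. Fibroblast markers are not a measure separate from the collagens, because Col1a1, Col1a2 and Col3a1 are 3 of them. Their summed level over 11 markers was 35.1 to 36 CPM in uninduced libraries, was 51.3 to 56.6 in those with 2 extra copies, and was 76.7 to 85.1 in those with none, with Fap at 0 in all 6 libraries and Dcn, Lum, Twist2 and Prrx1 under 1 CPM. Of the 6 tested, 4 had a log2 change above 0 and 2 below 0. The 3 called were Col1a1, Col1a2 and Col3a1, all higher. Trophectoderm markers summed to 151 to 163 CPM in uninduced libraries and 191 to 207 with 2 extra copies, with Elf5, Gata3 and Hand1 under 1 CPM, and Krt8 and Krt18 were the 2 called of the 5 tested. The part of such cells in the keratin and collagen changes was not tested.

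Markers of other embryonic lineages moved in both directions. Summed primitive endoderm markers went from 68.2 to 70.8 CPM in uninduced libraries to 48.5 to 60.5 with 2 extra copies, with Afp and Ttr at 0 and Sox17, Sox7 and Foxa2 under 1 CPM. Lama1, a laminin chain on that list, fell 1.27-fold. Neuroectoderm markers summed to 192 to 203 and 181 to 188 CPM, with Hes5 and Neurog2 under 1 CPM, and Pax6 fell 1.87-fold from 12.8, 12.2 and 13.1 to 8.59, 5.06 and 6.66 CPM. Primitive streak markers summed to 6 to 7.45 and 7.53 to 8.59 CPM without overlap, with Evx1 at 0. Of the 3 tested, the growth factor Fgf8 rose 1.92-fold from 1.69, 1.26 and 1.54 to 3.16, 2.71 and 2.75 CPM (adjusted p = 0.0284). Its call was lost when uninduced replicate 2 or 3 or any 1 library with 2 extra copies was left out (adjusted p from 0.0539 to 0.11).

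The cell cycle lists had medians near 0. Of 48 replication and G1/S genes 10 rose and 6 fell (20.8% and 12.5%), with a median of -0.01. Of 40 mitosis genes 9 rose and 5 fell (22.5% and 12.5%), with a median of 0.01. Over all genes tested the shares were 12.8% higher and 12.1% lower, so the lower shares of both lists were near the background. Cyclin E1, Ccne1, rose from 244, 263 and 269 to 310, 320 and 345 CPM (1.26-fold, adjusted p = 5.89e-07), and the phosphatase Cdc25a rose 1.15-fold. Cdkn1b, p27, fell 1.43-fold from 59.7, 51.3 and 54.3 to 35.6, 34.1 and 44.9 CPM, and cyclin D2, Ccnd2, fell 1.39-fold. Ube2c, which serves the anaphase-promoting complex, rose 1.22-fold, Cdk1 1.21-fold from 175, 188 and 186 to 218, 223 and 223 CPM and securin, Pttg1, 1.34-fold, while Ccnb2 fell 1.17-fold. Top2a was not called (1110, 1070 and 1060 against 1130, 1050 and 1070 CPM, adjusted p = 0.934). Against cells with no extra copy the mitosis list looked different, with 26 of 40 higher and 0 lower, Top2a among them (1.23-fold, adjusted p = 1.01e-07). Cells with no extra copy counted 0 higher and 25 lower of the 40 against the same uninduced libraries, with a median of -0.16. The replication count was 11 higher and 3 lower when 2-extra-copy replicate 1 was left out and 8 and 10 with library size alone, and the mitosis count 13 and 6 without that replicate and 8 and 3 without uninduced replicate 1.

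Imprinted genes fell in 13 of 36 with 4 higher and a median log2 change of -0.28. The maternally expressed noncoding RNAs Meg3 and Rian lie in one cluster on chromosome 12 and fell together, Meg3 from 629, 625 and 607 to 463, 438 and 386 CPM (1.45-fold, adjusted p = 3.17e-06) and Rian 1.38-fold. Dlk1, the paternally expressed gene of the same cluster, rose 2.10-fold at a low level, from 3.94, 4.03 and 3.54 to 7.36, 7.23 and 9.56 CPM. The growth inhibitor Grb10 fell 1.32-fold, and Snrpn, whose reads overlap those of Snurf, 1.33-fold. Phlda2, a placental growth restrainer, rose 1.45-fold from 46.4, 48.9 and 49.3 to 67.1, 71.7 and 71 CPM and Impact rose 1.21-fold. Meg3, Rian and Snrpn were also lower than in cells with no extra copy (adjusted p = 0.03, 0.00239 and 0.00107), and Phlda2 and Dlk1 were higher (1.39-fold and 1.69-fold).

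Of the 12 genes with the largest rises under the naming rule, Ydjc alone was on none of the lists above. It rose 1.91-fold from 32.9, 32.3 and 28.6 to 60.8, 59.4 and 59.5 CPM and shares sequence with its neighbour Ube2l3. Among the 12 largest falls, the GDNF family receptor Gfra3 fell 2.65-fold, Aire, the regulator of antigen expression in thymus, 2.63-fold from 12.4, 12.2 and 11.5 to 4.73, 4.34 and 4.64 CPM, and the transporter Abcc2 2.43-fold. Rhox6, an X-linked homeobox gene of the reproductive cluster, fell 2.48-fold from 12.7, 10.1 and 9.24 to 4.03, 4.52 and 4.35 CPM, while cells with no extra copy had 11, 11.1 and 11.7 CPM (2.60-fold, adjusted p = 1.49e-06). Ccng2, an atypical cyclin of growth arrest counted among the hypoxia genes, fell 2.33-fold. Of these 24 genes and Mycn, 8 were higher and 9 lower in cells with 2 extra copies than in cells with none, and DESeq2 called 10 of the 25. The genes were chosen on the same libraries with 2 extra copies, so nothing is read from that count.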

How the data were processed

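The authors deposited 1 table of expected counts per gene for all 9 single-end 75 bp libraries, made with RSEM 1.17 against GRCm38, per the submitters' processing notes, which also name cutadapt, Picard and limma without their roles. The annotation release in the column names is 84, and an aligner was not given in the sources used here. Of the values, 14.9% were not whole, and expected counts were rounded before testing. The table has 35771 genes, of which 35432 were named from GENCODE M21, and none is mitochondrial.

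Genes were filtered with filterByExpr, scaled by TMM (factors 0.983 to 1.01) and tested with edgeR 4.0.16 (R 4.3.3), quasi-likelihood F-test with Benjamini-Hochberg adjustment over 13424 genes, holding 99.8% of counts. All 9 libraries entered 1 fit, which shares the estimate of spread. Every adjusted p and fold comes from that fit unless another tool is named, and a call means an adjusted p below 0.05. At an unadjusted p below 0.05 the comparison held 4894 genes. On simulated data of this comparison with 13424 genes, 76% of 1.5-fold and 85% of 2.0-fold changes were recovered, and 0.0832% of unchanged genes were called. The simulation gave every gene and library the same spread and changed only 100 genes per fold. Its rates therefore do not cover genes with more spread or a replicate that stands apart. The precision of a value is limited by the totals given with the libraries.

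The comparison and its lists were chosen with earlier results of these data known. Named genes are Myc, Mycn, the 12 largest rises and 12 largest falls among called genes that reach a mean of 10 CPM in 1 group, a proper symbol and no overlap between groups, and up to 4 called members per list and direction with the smallest p. Others were added where a sentence says so, or as members not called. Genes with a copy of at least 95% identity over at least 50% of a transcript (minimap2 2.31-r1302), or at least 15% exon overlap, are marked uncertain. Alternatives were DESeq2 1.42.0, limma-voom (limma 3.58.1), other scalings and filters, the 6 libraries alone, a replicate block, a length offset and each library left out. A few genes that met the rule are not reported here.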

Additional observations from a re-analysis of the deposited data

How the results depend on the processing

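No value below changed direction past its threshold, and 163 of 192 named genes kept their call under all 20 alternatives. Of 560 list medians recomputed, 501 stayed within 1 SD of the replicates and 19 changed sign, all on lists with a median near 0. DESeq2 called 1889 genes against 3350, 1088 higher and 801 lower, and 10 of the 25 leading genes against cells with no extra copy, with medians of -0.073 for endoplasmic reticulum chaperones and 0.017 for mitosis. The share of called genes that were higher was 51.4%, against 57.6% with DESeq2 and 44.7% with library size alone. RLE factors gave 0.017 for mitosis, and upper-quartile factors -0.095 for chaperones and -0.003 for mitosis. Library size alone gave 0.032 for one-carbon genes, -0.105 for chaperones, -0.181 for formative genes, 0.156 for p53 targets, -0.029 for replication, -0.013 for mitosis and 0.036 for lysosomal genes. Without a filter the medians were -0.094 for WNT and 0.253 for keratin genes, and with only the 6 libraries -0.174 for WNT. The length offset gave 0.024 for one-carbon genes, -0.097 for WNT, -0.128 for formative genes, 0.154 for p53 targets, -0.047 for replication, 0.024 for mitosis and 0.035 for lysosomal genes. The replicate block and length offset together gave 0.028, -0.098, -0.145, 0.153, -0.046, 0.024 and 0.039 for the same lists. Same-numbered libraries did not deviate together (r from -0.081 to 0.081), so the numbers were not taken as pairs, and the replicate block called 3440 genes. The cause of these shifts was not tested.

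Leaving out each library in turn gave 2453 calls (without replicate 3 with 2 extra copies) to 3719 (without replicate 1), 1306 to 2004 of them higher and 1106 to 1715 lower, and 12 to 17 of the leading genes. List medians then ran from 0.111 to 0.160 for nucleotide and polyamine genes, 0.039 to 0.085 for one-carbon genes, -0.376 to -0.245 for hypoxia genes, -0.222 to -0.137 for glycolysis, -0.090 to -0.051 for chaperones, -0.171 to -0.121 for WNT, -0.189 to -0.158 for formative genes, 0.946 to 1.132 for two-cell-like genes, 0.158 to 0.202 for p53 targets, -0.053 to 0.001 for actin genes, 0.133 to 0.296 for keratin genes, -0.055 to 0.023 for matrix genes, 0.089 to 0.144 for NRF2 targets, -0.148 to -0.109 for cholesterol genes, -0.024 to 0.006 for replication, 0.007 to 0.038 for mitosis, 0.037 to 0.065 for lysosomal genes and -0.285 to -0.225 for imprinted genes. Depth limits genes of few CPM, such as Ndufa4l2 with 2 extra copies.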

Other observations

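Interferon and antigen presentation genes leaned lower with 2 extra copies of Myc, with 8 of 25 lower and 3 higher (32% and 12%, beside 12.1% and 12.8% of all genes tested). Ifitm1, a membrane protein that interferon induces, fell from 99, 102 and 105 to 68.5, 75.9 and 77.9 CPM (1.37-fold, edgeR adjusted p = 2.1e-07). The class I heavy chain H2-D1 fell 1.68-fold from 18.3, 19.4 and 17.5 to 9.64, 14.5 and 9.27 CPM, and the transcription factor Irf1 fell 1.28-fold. B2m, the light chain that pairs with H2-D1, rose 1.30-fold from 18.6, 17.5 and 19.7 to 22.6, 24.8 and 25.1 CPM, and the immunoproteasome subunit Psmb10 rose 1.42-fold. Ifitm1 and H2-D1 were also lower than in cells with no extra copy (1.19-fold and 1.33-fold), and B2m and Psmb10 were not called there (adjusted p = 0.414 and 0.0902). The list counted 2 higher and 4 lower with DESeq2.

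Lysosome and autophagy genes had 6 of 48 higher and 6 lower, 12.5% each and close to the shares of all genes tested. Acid glucosidase Gaa rose 1.23-fold from 95, 90.1 and 98.1 to 106, 116 and 126 CPM, and the protease Ctsd rose 1.10-fold. Prosaposin, Psap, fell 1.19-fold from 263, 269 and 265 to 224, 221 and 223 CPM, the cholesterol exporter Npc1 1.30-fold, and Tfe3, a factor that activates lysosomal genes, 1.21-fold. Psap stood at 273, 258 and 258 CPM in cells with no extra copy, above all libraries with 2 extra copies (1.18-fold, adjusted p = 4.25e-05). Without replicate 1 with 2 extra copies the list counted 9 higher and 5 lower.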
